A study of Mus musculus with 79 samples.

Results

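The POU domain genes of the mouse hypothalamus were examined here as a family, with Pou4f1 as the member whose transcript differed most between the genotypes. Of the 25965 genes of the RNA-seq table, 10 were taken by name: Pou4f1, Pou4f2 and Pou4f3, Pou3f1 to Pou3f4, and Pou2f1, Pou2f2 and Pou6f1. They were chosen by their RNA levels in these libraries, for the difference of Pou4f1 between genotypes and for the contrast of silent POU4 with expressed POU3 genes, so both are given below as descriptions without a test. The rule of that choice used no histone marks, but earlier results of these data were known when the members were chosen. The study also shows the marks at Pou4f1 from these libraries, so the mark tests at this gene do not stand apart from known results.

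Hypothalamus was taken from 14-week-old mice of 2 Dnmt3a genotypes, with no agent given to either. The +/+ mice carry wild-type alleles. In Δ/D329A mice the maternal allele (Δ) lost exon 18 through Cre expressed in the oocyte from the Zp3 promoter, and the paternal allele (D329A) carries a missense mutation in the PWWP domain, which binds methylated histone H3 lysine 36. The labels do not give the sex of the animals, and the study's own texts differ on it for RNA-seq. The mutated allele is thus the only functional copy of this DNA methyltransferase in every cell, and the loss of an allele and the missense change cannot be told apart between these genotypes. RNA-seq covered 5 +/+ and 4 Δ/D329A samples, and ChIP-seq for H3K4me3, H3K27me3 and H3K36me3 with an input library covered 3 animals of each genotype. Each ChIP animal gave all 4 libraries.

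POU factors bind DNA through a bipartite domain, a POU-specific part and a POU homeodomain, and many recognise an octamer. POU3 factors act in neural progenitors and in the neuroendocrine hypothalamus, where Pou3f2 is needed for the neurons of the paraventricular and supraoptic nuclei. POU4 factors specify sensory neurons, retinal ganglion cells and hair cells, and Pou4f1 also marks the medial habenula. Genes of this kind often sit in CpG islands held by H3K27me3, the mark of Polycomb repression, with H3K4me3, the mark of active or poised promoters, at the start. H3K36me3 is laid down over transcribed gene bodies.

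The promoter sequences of 3 members are shown because their chromatin differed in opposite ways between genotypes (Pou4f1, Pou3f4) or passed no promoter test (Pou4f2). They are the RefSeq promoters on GRCm38, from 250 bases before to 50 bases after the RefSeq start, 5′ to 3′ on the strand of the gene, and capitals mark each CpG, the dinucleotide that DNA methyltransferases methylate. Pou4f1 (chr14:104467950-104468249, minus strand) held 57 CpGs, Pou4f2 (chr8:78436598-78436897, minus strand) 18 and Pou3f4 (chrX:110814129-110814428, plus strand) 15.
Pou4f1: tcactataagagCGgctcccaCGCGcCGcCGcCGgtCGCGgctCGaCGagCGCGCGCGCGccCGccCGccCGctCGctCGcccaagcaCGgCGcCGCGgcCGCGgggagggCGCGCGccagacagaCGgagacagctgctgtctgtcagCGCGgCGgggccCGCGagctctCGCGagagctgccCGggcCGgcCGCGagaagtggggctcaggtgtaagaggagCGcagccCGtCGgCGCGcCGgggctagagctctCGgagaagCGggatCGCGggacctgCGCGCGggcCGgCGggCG
Pou4f2: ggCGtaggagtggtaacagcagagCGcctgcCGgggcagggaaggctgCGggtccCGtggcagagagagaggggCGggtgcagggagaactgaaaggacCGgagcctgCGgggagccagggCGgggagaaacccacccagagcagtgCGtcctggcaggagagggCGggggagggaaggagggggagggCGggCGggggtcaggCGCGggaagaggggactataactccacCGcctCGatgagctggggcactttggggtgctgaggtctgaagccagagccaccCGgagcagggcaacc
Pou3f4: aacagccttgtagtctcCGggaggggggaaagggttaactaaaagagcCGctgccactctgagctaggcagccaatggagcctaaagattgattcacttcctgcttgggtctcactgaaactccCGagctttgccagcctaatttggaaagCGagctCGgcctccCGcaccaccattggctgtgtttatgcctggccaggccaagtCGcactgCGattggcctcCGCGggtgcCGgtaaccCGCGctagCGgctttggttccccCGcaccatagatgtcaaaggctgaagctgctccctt

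Entries were matched for 8 of the 10 members, and Pou3f1 and Pou4f3 are named only. More CpGs lay in the promoter of Pou4f1 than in 99.8% of the 27025 promoters of this length, whose median was 7. The other matched members held between 13 (Pou2f2) and 32 (Pou2f1). The octamer ATGCAAAT, searched on both strands, occurred in 1.75% of all promoters and in none of these 8, and TATAAA on the strand of the gene occurred in 8.88% and in none of the 8.

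RNA-seq libraries held 5617932 to 9976687 reads on genes in +/+ and 3874084 to 6598737 in Δ/D329A, and the ChIP and input libraries held 12676361 to 30207875 uniquely mapped reads. A read count or tile value at this depth carries counting error as well as the spread between animals, and the intervals below cover counting error only. All 12 hypothalamic markers were measured (Hcrt at a mean of 79.8 RPKM in +/+). Dnmt3a itself stood at 1.91 ± 0.16 log2 RPKM in +/+ (SD, n = 5) and 1.64 ± 0.09 in Δ/D329A (SD, n = 4), with an adjusted p of 0.355 in limma, and a sum over the whole gene checks neither the missense change nor the loss of exon 18. The Δ/D329A replicate 1 library of H3K4me3 stood apart, with a median of 5 reads per 2 kb tile against 1 to 3 in the others, and values without it are given beside the H3K4me3 calls.

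Transcripts of the POU4 genes were nearly absent from +/+ hypothalamus, and those of Pou4f1 were present in Δ/D329A. Pou4f1 (chr14:104462320-104467991) specifies sensory and habenular neurons. Its 5 +/+ libraries held 0, 1, 0, 2 and 5 reads, and its 4 Δ/D329A libraries held 58, 27, 55 and 51. Every mutant library was above every wild-type library. Per length, the mean was 0.0301 RPKM in +/+ and 0.948 RPKM in Δ/D329A, a log2 difference of 5.28 on the deposited scale, in which a gene without a read stands at 0.9 reads. With a pseudocount of 0.1 RPKM it was 3.0 and with 1 RPKM 0.91, since the added value exceeds the +/+ level. Pooled over the libraries, 8 reads in +/+ stood against 191 in Δ/D329A, a ratio of 38.4 per sequenced read (95% exact counting interval 19.1 to 90.3). In bulk tissue, fewer cells of a type and less RNA per cell cannot be told apart.

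Pou4f2, which acts in retinal ganglion cells, had 0 reads in all 9 libraries, which allows up to 0.0376 RPM (reads per 1000000 reads of the library) in +/+ and 0.0605 RPM in Δ/D329A (3 reads over each group). Pou4f3, required for hair cells, had 0 reads in all 5 +/+ libraries and 3, 2, 4 and 0 reads in Δ/D329A. Set against a floor of 3 reads over the wild-type group, the mutant level was 4.83-fold higher. This value takes the 9 mutant reads as exact, so it is not a lower bound. It lay under the expression limit of the genome-wide fit and is given without a test. At 9 reads in all, the level of Pou4f3 rests on very little.

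All 4 POU3 genes were expressed in both genotypes, and their levels overlapped between them. Pou3f3, a regulator of cortical and kidney development (chr1:42697146-42700207), was the highest member, with 499, 306, 336, 195 and 216 reads in +/+ and 198, 139, 240 and 226 in Δ/D329A (2.59 ± 0.52 and 2.39 ± 0.31 log2 RPKM, SD, n = 5 and 4). Pou3f2, the neuroendocrine regulator (chr4:22482095-22488366), had 355, 332, 255, 272 and 289 reads against 207, 156, 245 and 229 (1.58 ± 0.12 and 1.42 ± 0.26 log2 RPKM). Pou3f4, known for its role in the inner ear (chrX:110814390-110815571), had 45, 33, 29, 18 and 20 reads against 33, 14, 25 and 16 (0.55 ± 0.52 and 0.51 ± 0.35 log2 RPKM). Pou3f1, a regulator of Schwann cell myelination, was the lowest of the subfamily and the most variable in +/+, with 15 to 81 reads there and 17 to 32 in Δ/D329A (-0.56 ± 0.83 and -0.64 ± 0.22 log2 RPKM).

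The other 3 members lay in the same range. Pou2f1, the ubiquitous octamer factor, stood at 0.82 ± 0.11 log2 RPKM in +/+ and 0.88 ± 0.22 in Δ/D329A. Pou6f1, a factor of the adult brain, stood at 1.95 ± 0.30 and 1.77 ± 0.07. Pou2f2, known from B cells, stood at -0.90 ± 0.32 and -0.83 ± 0.28, from 23 to 44 and from 18 to 30 reads. Its locus is overlapped on the opposite strand by D930028M14Rik. The study names a strand-specific library kit, but the counting is not stated to use strand, so reads of both cannot be told apart. The same holds for Cd247 at Pou2f1 and Gm20680 at Pou6f1, while Gm20646 overlaps Pou3f3 on the same strand. Cd247 had 16 reads in +/+ and 25 in Δ/D329A, beside 2352 and 1532 of Pou2f1. Gm20680 had 5 and 4 reads, beside 2202 and 1181 of Pou6f1. The neighbour 2610017I09Rik starts 2321 bp from Pou3f3, on the opposite strand. Of these 5 neighbours, 4 were tested and none was called.

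By mean log2 RPKM in +/+, the order was Pou3f3, Pou6f1, Pou3f2, Pou2f1, Pou3f4, Pou3f1, Pou2f2, Pou4f3, Pou4f1 and Pou4f2. Of the 9 steps in this order, 2 separated neighbours whose libraries did not overlap, that from Pou3f2 to Pou2f1 and that from Pou2f2 to Pou4f3. The places of the POU4 genes among themselves are set by depth and gene length where no read was found. Pou3f3 lay above 83.5% of all genes and Pou2f2 above 51.0%.

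**Figure D1:**
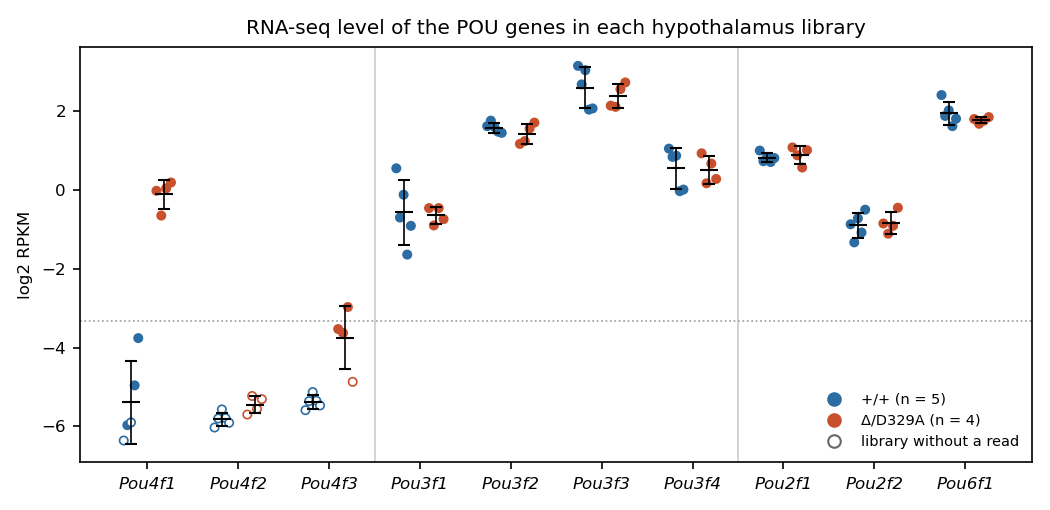
RNA-seq level of each member as log2 RPKM (reads per kilobase of exon, scaled to the reads of the library), with 1 point per library (5 +/+ in blue, 4 Δ/D329A in red, open where the library had no read), the mean and bars of 1 SD, and a dotted line at the expression limit of 0.1 RPKM. The Δ/D329A points of Pou4f1 lie between -0.65 and 0.19, all above the +/+ points (at most -3.76), while the groups overlap for each POU3 gene.

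The genome-wide fit (limma, called at an adjusted p under 0.01) tested 17839 genes and called 0.107% of them. It tested 8 of the 10 members and called Pou4f1, which was chosen for that difference. Pou4f1 met the expression limit only through its Δ/D329A libraries (0.638 to 1.14 RPKM, against at most 0.0738 in +/+). Its call therefore adds no support. For the other 7 the log2 difference (Δ/D329A minus +/+) ran from -0.21 (SE 0.26) for Pou3f3 to 0.07 (SE 0.22) for Pou2f2, with adjusted p from 0.751 to 0.989. For Pou3f4 it was -0.03 (SE 0.28) and for Pou3f2 -0.16 (SE 0.15). Leaving out single libraries turned the sign for Pou3f1, Pou3f4, Pou2f1 and Pou2f2. Outside the 10 members, Pou5f2 had 7 to 40 reads in every library, with an adjusted p of 0.839 in limma, and Pou1f1, the pituitary factor, and Pou5f1, the pluripotency factor, had 1 read each over all libraries. Pou2f3 had at most 4 reads in a library, and the B cell coactivator gene Pou2af1 at most 2.

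The 5 genes whose pattern over the 9 RNA-seq libraries was most like that of Pou4f1, by the mean absolute difference of centred log2 RPKM, were Dct (0.521), Wt1 (0.530), Lhx4 (0.605), Hoxa7 (0.686) and Gpnmb (0.815). Wt1, Lhx4 and Hoxa7 encode developmental transcription factors, and Dct and Gpnmb are known from pigment cells. Each was near 0 reads in +/+ or low, as for Gpnmb with 2 to 11 reads, and each was higher in all 4 mutant libraries. That follows from the choice, since likeness to Pou4f1 was measured over these same libraries.

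Genes that act with the POU factors gave no call, where 0.107% of all tested genes were called. At so low a share, lists this short without a call say little about their genes. Of the 11 partners of POU3 factors and neuroendocrine peptides, all were tested and none was called, with a median log2 difference of 0.11 against 0.06 over all genes. Sim1, which acts in the same neurons as Pou3f2, gave the lowest value, 2.07 against 1.18 RPKM (log2 difference -0.82, SE 0.17, adjusted p = 0.155 in limma), and its groups did not overlap. Gnrh1 (1.10, SE 0.36) and Crh (0.71, SE 0.34), the releasing hormones for gonadotropin and corticotropin, gave the highest, both at an adjusted p of 0.355, and Sst and Ghrh followed Sim1 at -0.04 each. Of 16 partners and targets of POU4 factors, 5 with reads were tested and none was called, and the median of these was that of Rbpms (-0.29). The proneural gene Neurog2 (0.73) and the synuclein gene Sncg (0.39) were highest, and Avil (-0.51) and Isl1 (-0.32), both markers of sensory neurons, were lowest. Atoh7 and Atoh1, upstream of POU4 genes in retina and inner ear, had no read in any library, although Atoh7 passed the expression limit through the value given to a gene without reads. Of 7 partners of POU2 factors, 6 were tested and none was called (median 0.07), from Snapc3 (-0.28) and Snapc1 (-0.25) to Snapc2 (0.20) and Snapc5 (0.21), subunits of the complex that activates small nuclear RNA genes.

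No marker of the cells that use POU4 factors was called, which says little where 0.107% of all tested genes were called. Summed over 7 medial habenula markers, the level was 3.01 to 5.80 RPKM in +/+ and 3.15 to 3.89 in Δ/D329A, with 6 of them tested at log2 differences from -0.35 (Lrrc55) to 0.70 (Gng8). Chrnb4, a nicotinic receptor subunit of the habenula that lay under the expression limit, had 27 reads in +/+ and 2 in Δ/D329A. Sensory ganglion markers summed to 1.98 to 6.51 and 2.92 to 4.31 RPKM, and retinal ganglion cell markers to 34.4 to 65.6 and 38.5 to 63.0, with 4 tested in each list, Atoh7 among them without a read. Markers of further cell types were checked as well. The 6 melanocytic markers summed to 0.916 to 1.23 RPKM in +/+ and 2.48 to 4.22 in Δ/D329A, with Dct (12 and 227 reads) the gene called. Of the other 5 genes of this list, Pmel had 24 and 7 reads (log2 difference -1.06, SE 0.47, adjusted p = 0.355), Tyrp1 12 and 6, Mitf 163 and 137, Tyr 1 and 0, and Mlana had no read. Tbr1, a marker of cortical projection neurons, had 37 reads in +/+ and 79 in Δ/D329A (log2 difference 1.97, SE 0.38, adjusted p = 0.119 in limma), and its groups did not overlap. Anterior pituitary markers ranged from 0.349 to 17.0 RPKM in +/+ and from 2.98 to 11.7 in Δ/D329A, oligodendrocyte markers from 214 to 330.5 and from 154 to 286, and no B cell marker passed the expression limit. The part of these cell types in the level of Pou4f1 was not tested.

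At the promoters (from -1500 to 500 bp relative to the start, the mean of 2 tiles), POU4 and POU3 genes carried different marks in +/+ tissue. H3K27me3 stood at 6.01 ± 0.55 reads per 1000000 mapped reads in a tile (RPM) at Pou4f1, 5.89 ± 0.25 at Pou4f2 and 5.30 ± 0.27 at Pou4f3 (SD, n = 3), 7.51 to 10.3 times input and above at least 98.6% of all promoters. At the POU3 genes it stood between 0.872 RPM (Pou3f4) and 1.64 RPM (Pou3f2), still 2.38 to 3.85 times input. H3K4me3 ran the other way, with 1.02 to 2.01 RPM at the POU4 promoters and 11.2 to 33.7 RPM at the POU3 promoters. Pou2f1 and Pou6f1 carried H3K4me3 (21.0 and 25.8 RPM) with H3K27me3 below input. These are levels of 10 genes, given without a test.

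**Figure D2:**
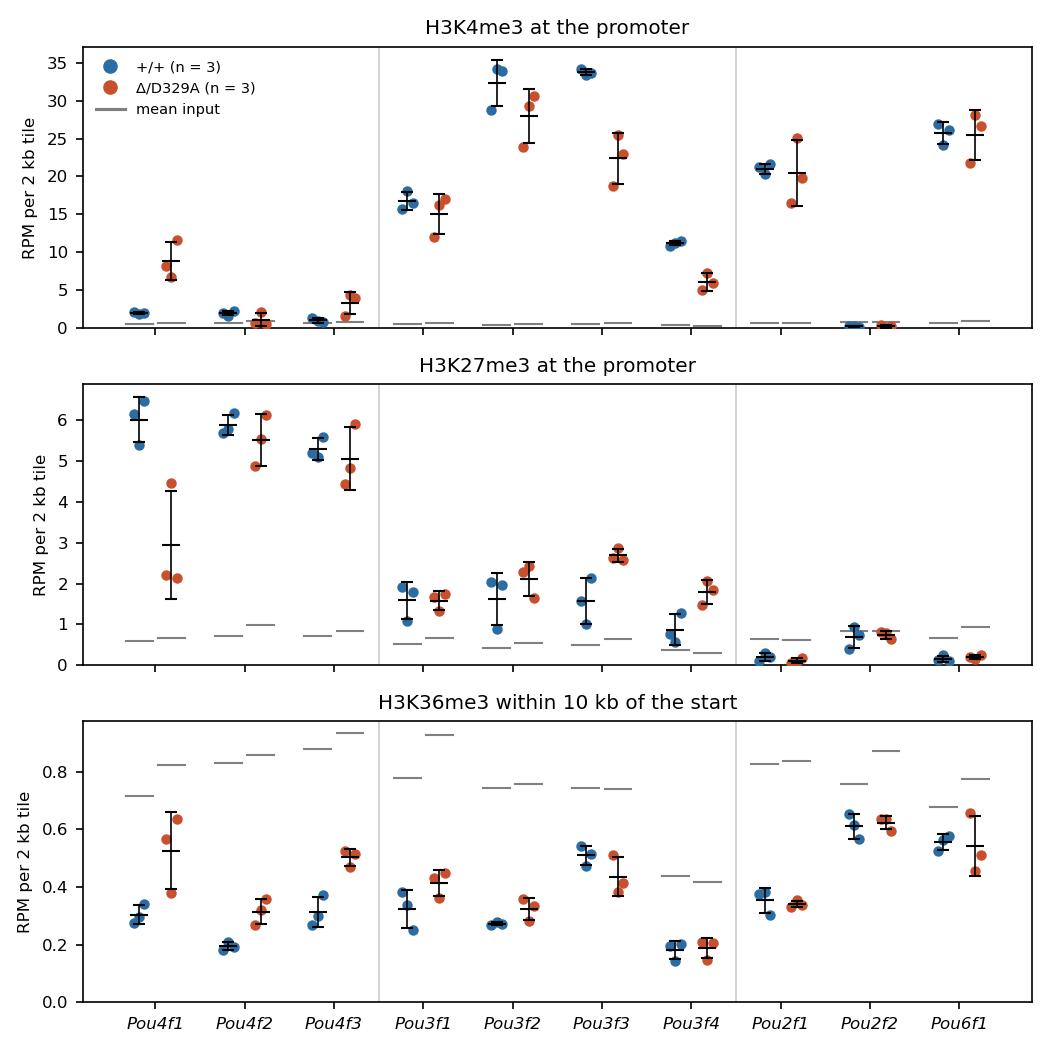
H3K4me3 and H3K27me3 at the member promoters and H3K36me3 within 10 kb of the start, as the mean RPM of the 2 kb tiles in each library, with 1 point per library (3 +/+ animals in blue, 3 Δ/D329A in red), the mean with bars of 1 SD, and grey lines at the mean input. The POU4 promoters carry H3K27me3 between 5.10 and 6.47 RPM in +/+, and in Δ/D329A the points of Pou4f1 fall to between 2.13 and 4.47.

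At the promoter of Pou4f1, H3K4me3 rose and H3K27me3 fell in Δ/D329A. H3K4me3 was 2.15, 1.93 and 1.94 RPM in the +/+ animals and 8.22, 6.71 and 11.6 RPM in the Δ/D329A animals. The groups lay far apart, and the log2 difference was 2.05 (SE 0.26, adjusted p = 1.75e-11 in limma). H3K27me3 was 6.17, 5.40 and 6.47 RPM against 2.22, 4.47 and 2.13 RPM (log2 difference -1.09, SE 0.18, adjusted p = 0.000496). Animal 2 of the mutants held the lowest H3K4me3 and the highest H3K27me3 of the group. In Δ/D329A, H3K27me3 at this promoter was still 4.43 times input. The highest H3K4me3 tile of the locus was centred 10 bp upstream of the start and went from 2.65 ± 0.13 to 12.4 ± 3.60 RPM, and H3K27me3 in that tile went from 5.42 ± 0.68 to 2.38 ± 0.98 RPM (SD, n = 3).

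Of these marks at the other POU4 promoters, H3K4me3 was called at Pou4f3 and neither was called at Pou4f2. At Pou4f3 H3K4me3 was 1.36, 0.931 and 0.755 RPM in +/+ and 1.66, 4.38 and 4.0 in Δ/D329A, and it rose by 1.55 on the log2 scale (SE 0.35, adjusted p = 0.00241 in limma), with animal 1 close to the wild-type values. The call ended without +/+ animal 3, without Δ/D329A animal 3 and as a ratio to input, with adjusted p from 0.0691 to 0.124. H3K27me3 stayed high at Pou4f3, at 5.30 ± 0.27 and 5.06 ± 0.76 RPM (log2 difference -0.07, SE 0.14, adjusted p = 0.925). Pou4f2, without a read of RNA, had H3K27me3 of 5.89 ± 0.25 and 5.52 ± 0.63 RPM (log2 difference -0.10, SE 0.14, adjusted p = 0.889). Its H3K4me3 was 2.06, 1.66 and 2.23 RPM against 0.721, 2.09 and 0.549 RPM, a log2 difference of -0.98 (SE 0.38, adjusted p = 0.511). Whether the difference at Pou4f1 was larger than at the other POU4 genes was not tested.

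Among the POU3 genes, the promoter of Pou3f4 moved in the opposite direction for both marks. H3K4me3 was 10.9, 11.2 and 11.4 RPM in +/+ and 5.02, 7.30 and 5.97 RPM in Δ/D329A (log2 difference -0.88, SE 0.22, adjusted p = 0.0104 in limma). H3K27me3 was 0.755, 0.570 and 1.29 RPM against 1.48, 2.06 and 1.85 RPM (log2 difference 1.02, SE 0.25, adjusted p = 0.0243). Neither pair of groups overlapped, and RNA reads of Pou3f4 overlapped throughout. Both calls ended in many settings that left out 1 animal (the H3K4me3 call without any 1 of the +/+ animals or without Δ/D329A animal 3, the H3K27me3 call without any animal but +/+ 3) and as a ratio to input, with adjusted p between 0.0543 and 0.972. Pou3f3 showed the same order without passing the test. Its H3K4me3 was 34.1, 33.4 and 33.7 RPM against 18.8, 25.4 and 23.0 (-0.60, SE 0.21, adjusted p = 0.245). Its H3K27me3 was 1.57, 1.02 and 2.13 RPM against 2.62, 2.88 and 2.59 (0.79, SE 0.21, adjusted p = 0.0514). Pou3f2 (32.3 and 28.0 RPM) and Pou3f1 (16.7 and 15.1 RPM) overlapped in H3K4me3, and likewise in H3K27me3.

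Over all promoters, 0.816% of 25379 were called for H3K4me3, and 3 of the 10 members were (Pou4f1 and Pou4f3 higher, Pou3f4 lower). For H3K27me3 0.885% of 25529 promoters were called, and 2 of the 10 members were (Pou3f4 higher, Pou4f1 lower). For H3K36me3 0.0314% of promoters and none of the members were called, and none by edgeR. An unadjusted p under 0.05 in limma was found for 1 of the 10 members, Pou4f3, and for 1862 of all 25450 promoters. Promoters without a read in any library of a mark are left out of these fits, a choice made after the data were seen, because with them kept the fit missed changed promoters in simulated data. With them kept, no member is called for any mark, and adjusted p becomes 0.755 for H3K4me3 and 0.431 for H3K27me3 at Pou4f1. Under each of the other 14 alternative settings both marks at Pou4f1 stayed called, with log2 differences from 1.68 to 2.26 for H3K4me3 and from -1.42 to -0.88 for H3K27me3. Without the H3K4me3 library that stood apart (Δ/D329A replicate 1), the H3K4me3 differences were 2.08 at Pou4f1, 1.98 at Pou4f3 and -0.75 at Pou3f4, each called. In input libraries no member was called at its promoter.

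**Figure D3:**
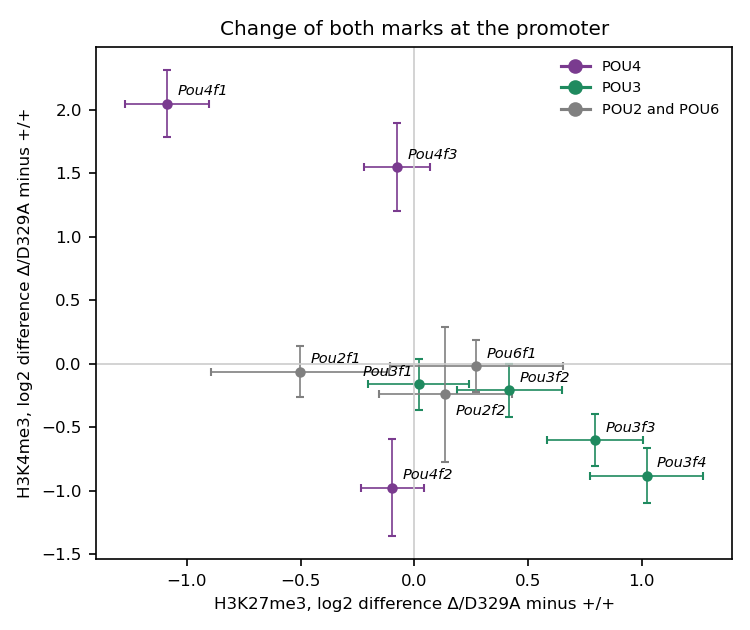
Log2 difference (Δ/D329A minus +/+) in promoter H3K27me3 on the horizontal axis against that in promoter H3K4me3 on the vertical axis for the 10 members, with bars of 1 SE. Pou4f1 lies at -1.09 and 2.05, Pou3f4 at 1.02 and -0.88, and Pou2f1, Pou2f2 and Pou6f1 lie within 1.5 SE of 0 on both axes.

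Within 10 kb on both sides of the start, Pou4f1 kept both differences. H3K27me3 was 6.13, 5.88 and 6.36 RPM in +/+ and 3.58, 4.85 and 3.41 RPM in Δ/D329A (log2 difference -0.64, SE 0.11, adjusted p = 0.0109), and H3K4me3 averaged 0.674 and 1.64 RPM (1.15, SE 0.22, adjusted p = 0.0233). Pou3f4 again went the other way, with H3K4me3 from 5.34 to 3.08 RPM (-0.79, SE 0.15, adjusted p = 0.0233) and H3K27me3 from 0.549 to 1.03 RPM (0.83, SE 0.17, adjusted p = 0.027). Without the H3K4me3 library that stood apart, the H3K4me3 differences were 1.10 at Pou4f1 and -0.65 at Pou3f4, both called. These 2 genes were the members called, where 0.168% of windows were called for H3K4me3 and 0.73% for H3K27me3. With windows of 5 kb no member was called for either mark, with adjusted p from 0.0996 to 0.571. Leaving out single animals (+/+ 1, +/+ 2 or Δ/D329A 3) ended the H3K27me3 call of Pou4f1, with adjusted p from 0.0565 to 0.123. That of Pou3f4 ended without +/+ animal 1 or 2 or Δ/D329A animal 1 or 3, with adjusted p from 0.0677 to 0.139.

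H3K36me3 in the same windows rose at all 3 POU4 genes, no other member was called, and 1.18% of all windows were called. It was 0.276, 0.296 and 0.340 RPM in +/+ and 0.565, 0.379 and 0.635 RPM in Δ/D329A around Pou4f1 (log2 difference 0.61, SE 0.14, adjusted p = 0.0122). Around Pou4f2 it was 0.182, 0.211 and 0.194 RPM against 0.268, 0.320 and 0.357 RPM (0.48, SE 0.13, adjusted p = 0.0409). Around Pou4f3 it was 0.269, 0.299 and 0.372 RPM against 0.523, 0.469 and 0.514 RPM (0.55, SE 0.12, adjusted p = 0.0146). All 3 windows stayed below input in both genotypes (0.235 to 0.639 times). Input itself was higher in each Δ/D329A animal than in each +/+ animal around Pou4f1 (means of 0.823 and 0.716 RPM) and Pou4f3 (0.93 and 0.88 RPM), without a call. Around Pou4f2 the input groups overlapped. Each call ended as a ratio to input, with 5 kb windows and without Δ/D329A animal 3. Leaving out +/+ animal 1 ended all 3 as well, Δ/D329A animal 1 those of Pou4f1 and Pou4f3, +/+ animal 2 those of Pou4f2 and Pou4f3, and +/+ animal 3 or Δ/D329A animal 2 that of Pou4f2. Over all alternatives adjusted p ran from 0.000372 to 0.458. The difference from the other members was not tested.

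Inside the gene bodies, from 500 bp after the start to the end, no member was called for any mark. The share of all gene bodies called was 0.0214% for H3K4me3 and 0.00426% for H3K27me3, and none of 23444 was called for H3K36me3, where 3603 had an unadjusted p under 0.05. On the log2 scale, H3K27me3 differed by -0.76 (SE 0.15) over Pou4f1, -0.10 (SE 0.11) over Pou4f2 and -0.40 (SE 0.08) over Pou4f3. Adjusted p for these ran from 0.248 to 0.717 in limma. H3K4me3 over Pou4f1 was 0.582, 0.811 and 0.578 RPM against 2.35, 1.77 and 2.29 RPM (1.56, SE 0.16, adjusted p = 0.0508). Over each POU3 gene H3K4me3 was lower in Δ/D329A, by -0.82 (Pou3f4), -0.78 (Pou3f3), -0.76 (Pou3f1) and -0.37 (Pou3f2). Adjusted p for these was 0.507 or more in limma. H3K27me3 differed by 1.21 over Pou3f4 (SE 0.16, adjusted p = 0.0951), 0.55 over Pou3f3, -0.27 over Pou3f1 and -0.05 over Pou3f2. H3K36me3 over Pou4f3 was 0.0875, 0.119 and 0.0523 RPM in +/+ and 0.803, 0.246 and 0.813 RPM in Δ/D329A, a log2 difference of 1.84 (SE 0.39, adjusted p = 0.237), and over Pou4f1 it was 0.123, 0.123 and 0.304 RPM against 0.506, 0.226 and 0.819 RPM (1.06, SE 0.41, adjusted p = 0.296). Animal 2 of the mutants was again the closest to wild type at both genes. The expressed members Pou2f1, Pou6f1 and Pou3f3 carried the mark above input in +/+ (1.34, 1.42 and 1.34 RPM, or 1.55, 1.92 and 2.17 times input). Pou2f2 stood at 1.01 times input in +/+. The other expressed POU3 genes lay below input, at 0.399 (Pou3f1), 0.643 (Pou3f2) and 0.293 times (Pou3f4). Over Pou3f3, H3K36me3 was 1.47, 1.12 and 1.43 RPM in +/+ against 0.990, 0.803 and 0.665 RPM in Δ/D329A (log2 difference -0.66, SE 0.15, adjusted p = 0.237 in limma).

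The H3K27me3 domains, taken as the unbroken run of tiles at 2 or more times input around the start, lay over the starts of expressed POU3 genes as well as silent POU4 genes. They spanned 39, 31 and 36 kb at Pou4f1, Pou4f2 and Pou4f3 in +/+ and 28, 31 and 48 kb in Δ/D329A. At Pou3f1, Pou3f2 and Pou3f3 they spanned 17, 28 and 34 kb in +/+ and 20, 29 and 40 kb in Δ/D329A. Pou3f4 had the narrowest, 6 and 10 kb, and no such domain covered the starts used for Pou2f1, Pou2f2 and Pou6f1. The start used for Pou2f2 lay away from its site of H3K4me3, as given below. The highest tile within the domain of Pou4f1 held 8.57 RPM in +/+ and 5.46 RPM in Δ/D329A. Runs of H3K4me3 reached 24 kb at Pou3f2 in both genotypes and 18 and 16 kb at Pou3f3, and were 3 and 5 kb at Pou4f1. These widths are read from group means and carry no error.

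**Figure D4:**
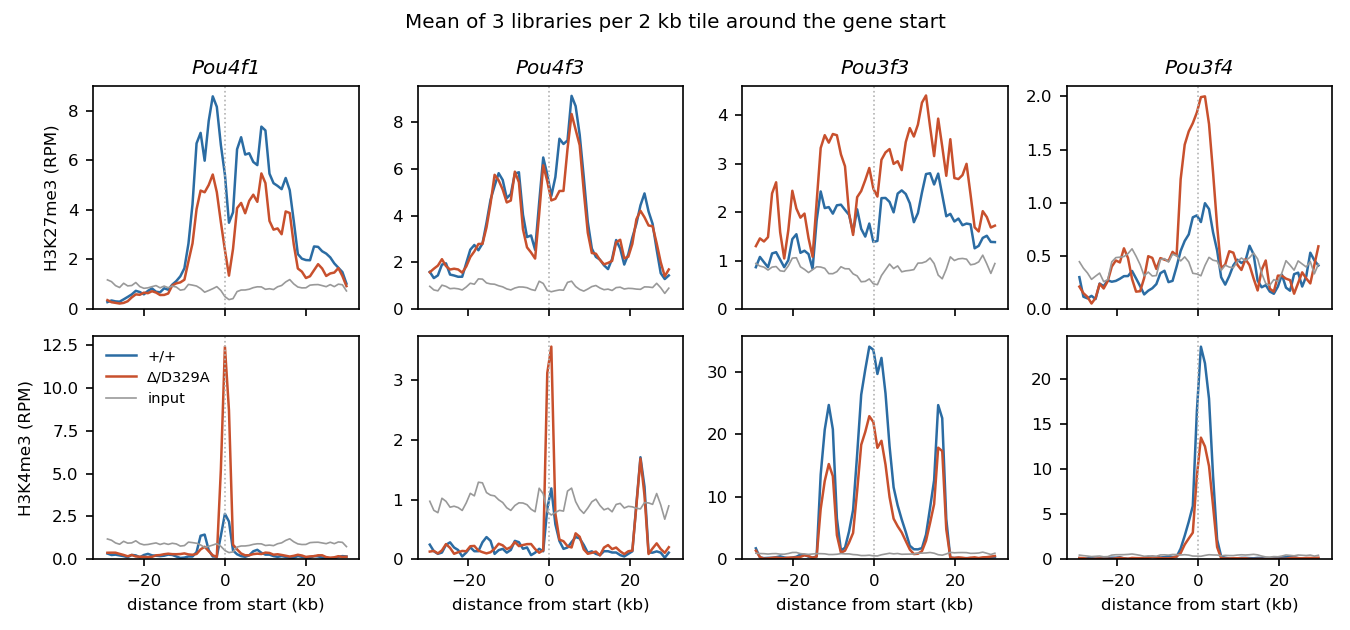
Mean H3K27me3 (upper row) and H3K4me3 (lower row) in RPM per 2 kb tile against the distance from the gene start in kb, along the direction of transcription, for Pou4f1, Pou4f3, Pou3f3 and Pou3f4 in +/+ (blue), Δ/D329A (red) (each a mean over 3 animals) and input (grey, mean of both genotypes). At Pou4f1 the H3K27me3 line of Δ/D329A runs below that of +/+ and H3K4me3 peaks at the start at 12.4 against 2.65 RPM.

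The start used for Pou2f2 was not its site of H3K4me3. The promoter at the annotated 5′ end of the longest model held 0.250 RPM in +/+, below input, and the highest H3K4me3 tile of the gene lay 26922 bp inside it, with 5.06 ± 0.52 RPM in +/+ and 4.47 ± 1.29 in Δ/D329A (SD, n = 3). The RefSeq start lies 27460 bp into the gene, where the promoter held 3.73 and 3.48 RPM of H3K4me3 and 1.83 and 1.78 RPM of H3K27me3. Input there was 0.780 RPM in +/+ and 0.882 RPM in Δ/D329A, so H3K27me3 lay above input. The width of an H3K27me3 domain around the RefSeq start was not measured. For Pou3f3 the RefSeq start lies at -1378 bp relative to the start used, and H3K4me3 there was 32.1 ± 0.50 and 21.6 ± 2.70 RPM.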

How the data were processed

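RNA-seq and native ChIP-seq of mouse hypothalamus were analysed from 2 tables. Per the study's methods, RNA was depleted of ribosomal RNA and read single-end; the authors mapped reads to GRCm38 with HISAT2 and deposited log2 RPKM per gene from SeqMonk (reads merged over exons). Chromatin was digested with MNase, with 2.5% of a hypothalamus for each immunoprecipitation; the authors mapped it with Bowtie and deposited a signal of reads per 1000000 mapped reads (RPM) in tiles of 2 kb every 1 kb, with input not subtracted. Libraries were not pooled. Whole reads were recovered for all 25965 genes (tolerance 0.02 reads), with library totals taken from the scale of the values.

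Genotypes were taken from the labels, and 0 columns were left unused. RNA was fitted with limma 3.58.1 (R 4.3.3) on log2 RPKM for genes at 0.1 RPKM or more in at least 4 libraries, mitochondrial genes left out (called at an adjusted p under 0.01). Marks were fitted with limma on log2(RPM + 0.1) for every gene's promoter, 10 kb window and body (called under 0.05), a scale that understates changes of low values; input was fitted the same way. All p-values were two-sided and adjusted by Benjamini-Hochberg over all regions of a fit. Replicates are samples labelled as such. The plan kept regions without a read; they were left out after simulated data showed that they hid changed regions.

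edgeR 4.0.16 on recovered reads called 77 genes and DESeq2 1.42.0 called 251. Named genes were all members, other POU genes (some genes under this rule are not reported here), called or extreme genes of the lists, neighbours, and the 5 genes most like Pou4f1. A planned permutation test of Pou4f3 is not reported, since libraries without a read are ordered by depth on the log2 scale and RNA levels chose the members. Members and lists were chosen with earlier results of these data known. Figures used Matplotlib 3.10.9 and statistics SciPy 1.17.1.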

Additional observations from a re-analysis of the deposited data

How the results depend on the processing

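With regions without reads kept, 0 members were called for H3K4me3 or H3K27me3 at promoters and for any mark in windows. For H3K4me3 at promoters (3 members called), 1 was called as a log2 ratio to input and 1 to 5 with 1 animal left out, where 5 came without Δ/D329A animal 2 and 1 without +/+ animal 3 or Δ/D329A animal 3. For H3K27me3 at promoters (2 called), 1 was called as a ratio to input, with mitochondrial coverage as a block and with edgeR on 1 tile, and 1 to 3 with 1 animal left out. In windows, H3K4me3 (2 called) gave 0 with a pseudocount of 1 RPM, 0 at 5 kb, 1 with median centring, 1 as a ratio to input and 2 to 3 with 1 animal left out. H3K27me3 (2 called) gave 1 with the mitochondrial block, 0 at 5 kb and 0 to 3 with 1 animal left out, and H3K36me3 (3 called) gave 0 as a ratio to input, 0 at 5 kb and 0 to 2. Over gene bodies, H3K4me3 (0 called) gave 1 (Pou4f1) with a mean of at least 0.3 RPM, as a ratio to input, with the replicate block and with the mitochondrial block, and 0 to 1 with 1 animal left out. The cause was not tested.

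The RNA difference of Pou4f1 ran from 0.91 (pseudocount of 1 RPKM) to 5.69 on the log2 scale. Leaving out single RNA-seq libraries gave log2 differences from -0.35 to 0.20 for Pou3f1, -0.18 to 0.091 for Pou3f4, -0.057 to 0.17 for Pou2f2 and -0.00046 to 0.17 for Pou2f1, so their signs are not settled. Median centring moved the median difference of all H3K4me3 promoters from -0.07 to 0.14 and of H3K36me3 promoters from 0.11 to -0.09 on the log2 scale. It changed the calls from 40 higher and 167 lower to 25 and 39 (H3K4me3 promoters), from 262 and 41 to 198 and 86 (H3K36me3 windows) and from 15 and 4 to 22 and 12 (RNA).

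Deviations of same-numbered samples of both genotypes correlated weakly, from -0.0543 to 0.137 for RNA and from -0.129 to 0.168 for the marks. Samples of different numbers were not compared, so whether the numbers pair animals was not tested. With the replicate block, 3 members were called for H3K27me3 at promoters, 3 in windows and 1 for H3K4me3 over gene bodies. Other member counts moved by less than 1.5 times.

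With 3 animals a group and few reads per tile, a member without a call is not shown to be unchanged.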

Other observations

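H3K4me3 at Pou3f3 had further peaks away from the start, chosen after the profile was seen and given without a test. The highest tile upstream lay 11.1 kb before the start, with 24.7 ± 1.53 RPM in +/+ and 15.2 ± 2.30 RPM in Δ/D329A (SD, n = 3), and H3K27me3 in it was 2.11 ± 0.33 and 3.44 ± 0.39 RPM. The highest tile downstream lay 15.9 kb after the start, with 24.6 ± 1.10 and 17.8 ± 4.35 RPM of H3K4me3 and 2.80 ± 1.04 and 3.93 ± 0.82 RPM of H3K27me3. In both tiles the 3 H3K4me3 values of Δ/D329A lay below the 3 of +/+.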
